A study of Mus musculus with 4 samples.

Results

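Circadian clock output and glucocorticoid-induced genes were examined in single cells from the malignant ascites of mice. The set holds 10 genes, the period genes Per1, Per2 and Per3, Ciart, Nr1d1, Nr1d2, Dbp, Tef, Tsc22d3 and Fkbp5, of 29835 genes in the 4 joined matrices. All 10 were found by symbol in every matrix. They were chosen by their function and selected on their CPM in the gated cells of these libraries, which was already known when the set was proposed, so levels and ratios are given as a description and carry no test. The question was whether each member moved in the same direction in every cell class of a library, as a shared hour of collection could make it do.

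The mice were C57BL/6 (C57BL/6NCrl per the study's methods), female and 6 weeks old when injected intraperitoneally with ID8-Trp53-/- cells, a mouse ovarian surface epithelial line in which Trp53 has been knocked out. All 4 groups carried these tumour cells, and dosing started after 7 days of engraftment and ended at about 3 mL of ascites. The control group received DMSO and IgG, and the BTYNB group received the same IgG with BTYNB, a small-molecule inhibitor of the RNA-binding protein Igf2bp1. The anti-PD-1 group received DMSO with an antibody that blocks PD-1, an inhibitory receptor of T cells, and the combination group BTYNB with that antibody. The labels give 50 mg/kg of BTYNB and 100 ng of antibody per dose, and the methods state other amounts. Ascites of several animals was pooled into 1 library per group, frozen and cleared of dead cells before capture, so no spread between animals is known. The hour of collection is not given in the sources used here, and in this design hour, pool and treatment cannot be told apart.

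Circadian clocks run in most mammalian cells as a transcriptional loop. The factors Clock and Arntl (also called Bmal1) bind E-box sequences and switch on the Per and Cry genes, whose products then block them, while Nr1d1 and Nr1d2 (the REV-ERB receptors) repress Arntl. Dbp and Tef carry the rhythm to other genes through D-box sequences. Per1, Tsc22d3 (also called GILZ) and Fkbp5, a co-chaperone that lowers the affinity of the glucocorticoid receptor for its ligand, are also induced by glucocorticoids, hormones that themselves follow the time of day.

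Start-site sequences are shown for members at both ends of the pattern described below. Per1 and Ciart stood higher in BTYNB than in control, Dbp stood lower, and Per3 lay between them. The 250 bases before the start site are given 5′ to 3′ from the RefSeq promoter table (GRCm38.p6, a different build from the GRCm39 named in the submitters' processing notes). Capitals mark matches to any motif searched on both strands, namely the E-box CACGTG, its variant CACGTT, the D-box TTATGTAA or TTATGCAA, the cyclic AMP response element TGACGTCA, the nuclear receptor half-site AGGTCA and the glucocorticoid response element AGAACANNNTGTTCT.
Per1 (chr11:69098699-69098948, plus strand, the first of 2 start sites): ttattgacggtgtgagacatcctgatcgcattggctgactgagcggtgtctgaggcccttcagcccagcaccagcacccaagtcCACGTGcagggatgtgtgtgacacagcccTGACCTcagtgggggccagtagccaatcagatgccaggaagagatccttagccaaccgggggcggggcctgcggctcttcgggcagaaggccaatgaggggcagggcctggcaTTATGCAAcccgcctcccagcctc
Ciart (chr3:95882229-95882478, minus strand): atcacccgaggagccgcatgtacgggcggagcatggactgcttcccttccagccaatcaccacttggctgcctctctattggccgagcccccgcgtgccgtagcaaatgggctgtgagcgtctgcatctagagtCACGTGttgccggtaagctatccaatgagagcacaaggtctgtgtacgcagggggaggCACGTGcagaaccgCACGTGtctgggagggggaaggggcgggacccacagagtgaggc
Per3 (chr4:151044666-151044915, minus strand): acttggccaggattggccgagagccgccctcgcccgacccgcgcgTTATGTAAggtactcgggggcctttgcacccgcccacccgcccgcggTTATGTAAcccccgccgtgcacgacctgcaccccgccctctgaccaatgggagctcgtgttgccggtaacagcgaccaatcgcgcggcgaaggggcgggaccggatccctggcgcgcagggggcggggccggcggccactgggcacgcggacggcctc
Dbp (chr7:45704997-45705246, plus strand): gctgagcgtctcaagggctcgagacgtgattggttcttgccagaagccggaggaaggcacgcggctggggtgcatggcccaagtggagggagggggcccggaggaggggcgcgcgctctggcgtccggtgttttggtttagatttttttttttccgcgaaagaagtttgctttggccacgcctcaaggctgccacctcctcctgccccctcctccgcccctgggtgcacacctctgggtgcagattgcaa

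The Ciart window held 3 E-boxes, which began 116, 58 and 44 bases before the start site. Per1 had an E-box 166 bases, a nuclear receptor half-site 137 bases and a D-box 24 bases before its start, and Per3 had D-boxes at 205 and 158 bases. None of the motifs was found in the Dbp window, which says only that these letters are not in these 250 bases. Of the 9 members in the table (Per2 had no entry), 4 held an E-box (Per1, Ciart, Tef and Fkbp5), against 6.05% of 27025 promoters, and 2 held a D-box, against 1.60%. The variant E-box was present in Nr1d1 alone and in 3.93% of all promoters, and the nuclear receptor half-site in Per1 and Nr1d2 and in 13.8%. No member window held the cyclic AMP response element, found in 1.62% of promoters, or the glucocorticoid response element, found in 1 promoter. A match is a run of letters, not evidence of binding.

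Cells were assigned by unique molecular identifiers (UMIs) of marker genes. Tumour cells had at least 5 UMIs of Krt7, Krt8, Krt18, Krt19 and Wt1 together and none of Ptprc. Myeloid cells had at least 3 UMIs of Lyz2 and Csf1r and at most 2 of the 4 keratins. T cells had at least 2 UMIs of Cd3d, Cd3e and Cd3g, and B cells at least 3 of Cd79a and Cd79b. The control, BTYNB, anti-PD-1 and combination libraries (always named in this order) gave 7078, 3426, 10877 and 4237 tumour cells and 285, 2945, 370 and 1176 myeloid cells. T cells numbered 9, 2302, 18 and 95, and B cells 9, 3141, 3 and 123, so T and B cells could be set side by side only between BTYNB and combination. Levels are UMIs of the gene scaled to a common class total (CPM) with exact Poisson 95% intervals, and ratios of 2 libraries carry exact intervals. Both cover counting error alone.

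Each gate showed the markers of its class, which include the genes it selects on, but the leukocyte gates also held tumour RNA. All 8 tumour markers and all 6 markers of each leukocyte class were detected in their own class in every library with at least 50 such cells. The summed level of the tumour markers Msln, Upk1b, Upk3b and Wt1 in myeloid cells was 11.0%, 4.27%, 17.0% and 7.54% of that in tumour cells of the same library. In T cells this share was 22.3% in BTYNB and 52.6% in combination, and in B cells 29.7% and 48.6%. In combination T cells the 8 tumour markers summed to 1654 CPM, beside 1696 CPM for the 6 T markers. The T and B gates set no keratin limit, and 52 of 95 T and 64 of 123 B cells of combination had at most 2 keratin UMIs. Conversely Lyz2 in tumour cells lay between 15.7 and 52.0 CPM and Cd3e between 0.134 and 0.667 CPM. The smallest deposited cell had 4438, 869, 3533 and 5115 UMIs, and the median tumour cell 9785.5, 14853, 7160 and 11473. Of 46329 barcodes, 13 occurred in more than 1 library.

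In tumour cells, Per1, the most inducible of the period genes, measured 35.4 CPM in control (34.0 to 36.8) and 55.6 CPM with BTYNB (53.6 to 57.6), beside 24.5 CPM with anti-PD-1 (23.4 to 25.6) and 33.1 CPM with both agents (31.6 to 34.6). Both BTYNB-treated libraries stood above their partner without BTYNB, by 1.57-fold (1.49 to 1.66) against control and by 1.35-fold (1.27 to 1.44) against anti-PD-1. Per2, which closes the loop together with the Cry proteins, measured 10.5, 15.5, 9.5 and 14.5 CPM, so that the intervals of the 2 libraries with BTYNB did not meet those of the 2 without. Its ratios were 1.47 (1.33 to 1.62) and 1.52 (1.38 to 1.68). Ciart, a repressor of Clock and Arntl that is also called Chrono, measured 3.19, 4.45, 2.62 and 3.80 CPM from 205 to 238 UMIs, with ratios of 1.39 (1.16 to 1.68) and 1.45 (1.19 to 1.77).

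Dbp, the D-box activator, went the other way. Control had 31.6 CPM (30.4 to 32.9) and BTYNB 17.6 CPM (16.5 to 18.7), whereas anti-PD-1 had 24.3 CPM (23.2 to 25.4) and combination 16.1 CPM (15.1 to 17.3). The lower level of both BTYNB-treated libraries gave ratios of 0.556 (0.515 to 0.599) against control and 0.665 (0.613 to 0.720) against anti-PD-1. Fkbp5 was lower by less, at 264, 220, 229 and 207 CPM, with ratios of 0.833 (0.814 to 0.853) and 0.904 (0.883 to 0.925). Per1, Per2 and Ciart were thus higher in the same libraries in which Dbp and Fkbp5 were lower.

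The remaining members differed less than Dbp with BTYNB. Nr1d1 measured 39.6, 36.2, 31.4 and 34.6 CPM and was lower than control with BTYNB alone (ratio 0.913, 0.861 to 0.967) but higher than anti-PD-1 in combination (1.10, 1.04 to 1.17). Nr1d2 measured 49.2, 44.5, 39.8 and 37.8 CPM, Tef 30.8, 27.7, 19.7 and 20.9, Per3 5.45, 5.87, 4.15 and 4.95, and Tsc22d3 4.61, 4.17, 2.97 and 3.67. For Per3 and Tsc22d3 the ratio of BTYNB to control had an interval that included 1 (0.925 to 1.25 and 0.760 to 1.07), but both were higher in combination than with anti-PD-1 alone, by 1.19-fold and 1.23-fold, with lower bounds of 1.01 and 1.02.

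**Figure D1:**
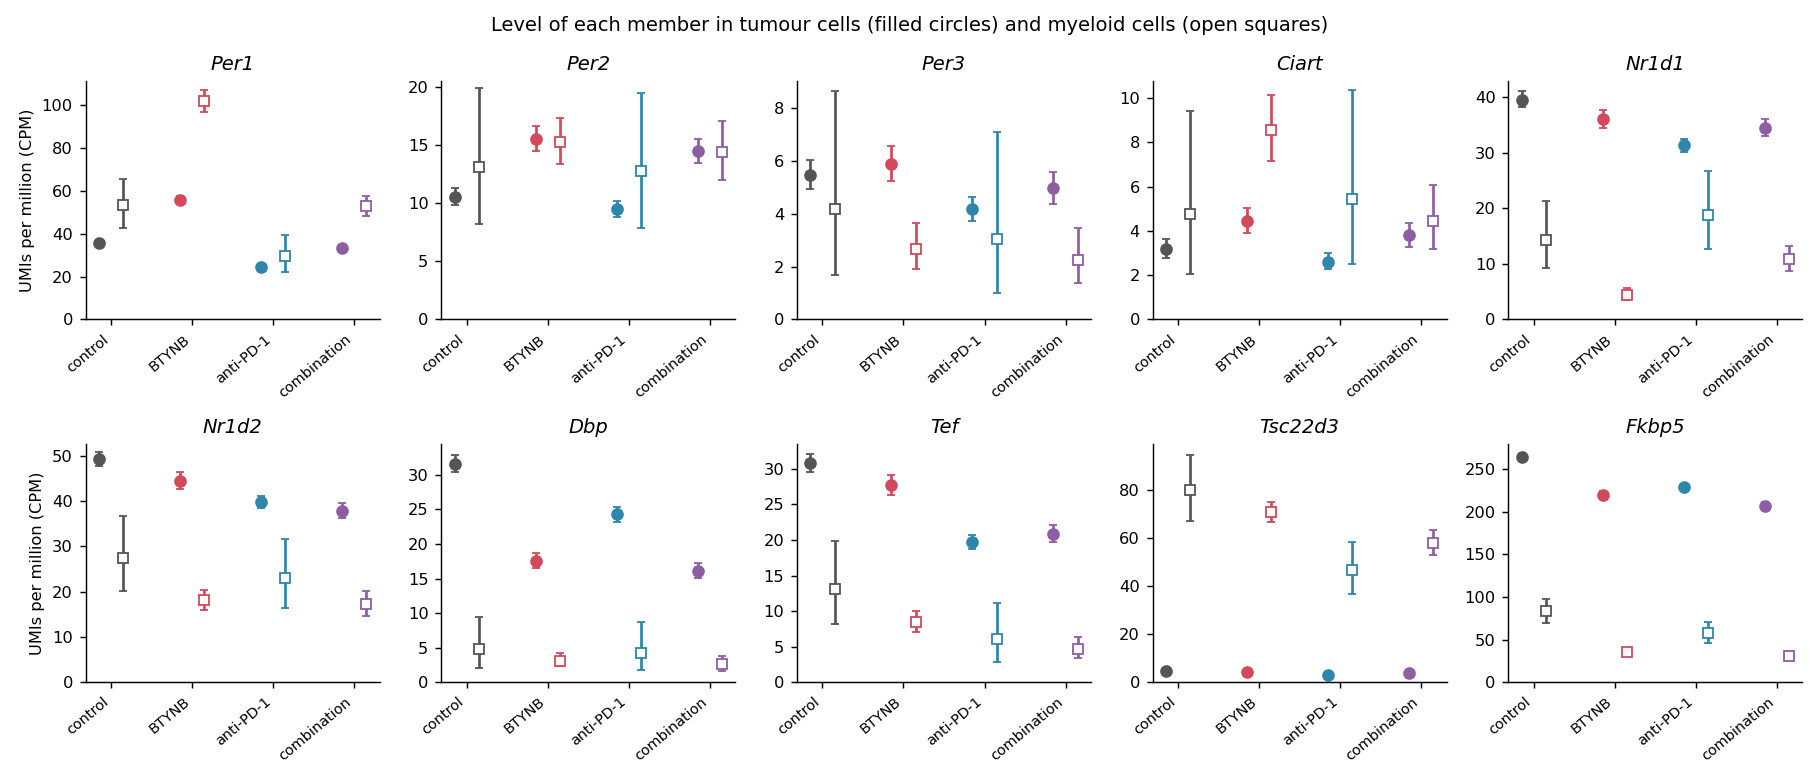
Levels of the 10 members in CPM (vertical axis, from 0, with its own scale in each panel) in tumour cells (filled circles) and myeloid cells (open squares) of the 4 libraries, with exact Poisson 95% intervals as bars. Per1 is highest in the BTYNB library in both classes (55.6 CPM in tumour and 102 CPM in myeloid cells), and Dbp in tumour cells is lower in BTYNB and combination than in the other 2 libraries.

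Over the set, 4 of 10 members were above 0 on the log2 scale for BTYNB against control in tumour cells, with a median log2 ratio of -0.12, beside 52.2% of 15437 genes and a median of 0.01. For combination against anti-PD-1, 7 of 10 were above 0 with a median of 0.17, beside 58.9% and 0.06 for all genes. The pair of contrasts shares no library, and 7 of 10 members had the same sign in both, beside 62.4% of genes. Those 7 were Per1, Per2, Per3 and Ciart, higher in both, and Nr1d2, Dbp and Fkbp5, lower in both.

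Anti-PD-1 was accompanied by lower levels across the set in the tumour gate as a whole. Against control, 0 of 10 members were above 0 (42.1% of 15954 genes), with a median log2 ratio of -0.33 where all genes had -0.05. Tef, the D-box activator closest to Dbp, had a ratio of 0.638 (0.599 to 0.681), Tsc22d3 of 0.645 (0.545 to 0.762) and Per1 of 0.692 (0.652 to 0.733). The interval of each of the 10 ratios lay below 1, and the share of all genes with such an interval was not computed. Combination against BTYNB, which shares no library with that contrast, also had 0 of 10 above 0 (47.8% of 15236 genes), with a median of -0.16. Here Per1 (0.595, 0.561 to 0.631) and Tef (0.754, 0.697 to 0.815) were furthest from 1, and 5 of 10 intervals included 1, again without a share over all genes. All 10 members and 32.6% of genes were below 0 in both contrasts.

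The makeup of the tumour gate differed between libraries. Cells with at least 3 UMIs of Cd24a numbered 295, 129, 2015 and 144, and cells with at least 2 UMIs of the proliferation genes Mki67 and Top2a 3070, 1090, 4644 and 1739. In tumour cells that were neither, 1 of 10 members was above 0 for anti-PD-1 against control (Ciart, 2.82 and 2.92 CPM in control and anti-PD-1), beside 43.4% of genes, and 2 of 10 for combination against BTYNB (Per2 and Dbp), beside 51.9%. The BTYNB contrasts had 4 of 10 above 0 against control (48.6% of genes) and 7 of 10 for combination against anti-PD-1 (54.8% of genes), as in all tumour cells. In Cd24a-high cells 4 of 10 were above 0 for anti-PD-1 against control and 5 of 10 for combination against BTYNB. The share over all genes was not computed for these cells, so the counts have no background beside them. There Per2 was 1.94-fold (1.23 to 3.20) and Dbp 1.68-fold (1.29 to 2.22) higher with anti-PD-1 than in control, from 21 and 63 UMIs in control. No member differed by 2-fold in tumour cells in any of the 4 contrasts, where 0.693%, 2.53%, 2.48% and 0.131% of genes did so (BTYNB, then anti-PD-1, each against control, and combination, first against anti-PD-1 and then against BTYNB).

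Per1 had a like order in myeloid cells. Control had 53.2 CPM (42.7 to 65.5) and BTYNB 102 CPM (96.6 to 107), whereas anti-PD-1 had 29.7 CPM (22.0 to 39.3) and combination 52.7 CPM (48.1 to 57.7). BTYNB was highest and anti-PD-1 lowest, while the intervals of control and combination overlapped in both classes. The ratios of BTYNB to control and of combination to anti-PD-1 were 1.91 (1.54 to 2.39) and 1.77 (1.32 to 2.43). Fkbp5 measured 83.1, 35.2, 57.6 and 30.4 CPM, so it was lower in both BTYNB-treated libraries, by ratios of 0.423 (0.351 to 0.514) and 0.528 (0.417 to 0.674). Tumour RNA at the shares given above would supply 29.1, 9.40, 39.0 and 15.6 of these CPM, and after subtraction 60.6, 26.9, 22.5 and 16.0 CPM remained. Its part in the result was not tested.

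Nr1d1 was low in myeloid cells of the BTYNB library. Control had 14.3 CPM (9.19 to 21.3) and BTYNB 4.50 CPM (3.50 to 5.70), whereas anti-PD-1 had 18.8 CPM (12.8 to 26.7) and combination 10.8 CPM (8.77 to 13.2), from 24, 69, 31 and 97 UMIs. The interval of BTYNB met none of the others, and its ratio to control was 0.314 (0.195 to 0.522). Tumour RNA would supply 4.36, 1.54, 5.33 and 2.61 CPM, and after subtraction 11.2, 3.09, 16.2 and 8.88 CPM remained. Tsc22d3, a leucine-zipper protein through which glucocorticoids damp inflammatory signalling in leukocytes, measured 80.1, 70.9, 46.7 and 58.1 CPM, with expected tumour RNA of at most 0.508 CPM. It was lower in anti-PD-1 than in control (0.583, 0.435 to 0.777).

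The other myeloid values rested on few UMIs in control and anti-PD-1, at most 46 and 38 (both Nr1d2). In BTYNB they rested on 41 (Per3) to 277 (Nr1d2) UMIs, and in combination on 20 (Per3) to 155 (Nr1d2). Nr1d2 measured 27.5, 18.1, 23.0 and 17.3 CPM, Tef 13.1, 8.42, 6.06 and 4.68, and Per2 13.1, 15.3, 12.7 and 14.4. Dbp was counted 8, 48, 7 and 23 times, giving 4.78, 3.13, 4.24 and 2.56 CPM, of which tumour RNA would supply 3.48, 0.751, 4.13 and 1.22 CPM. Ciart measured 4.78, 8.55, 5.46 and 4.46 CPM and Per3 between 2.23 and 4.18 CPM. Differences in these genes between the smaller myeloid samples were mostly within counting error.

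Genes with at least 50 UMIs over both libraries were compared. At that minimum 9 members passed in myeloid cells for BTYNB against control, 3 of them above 0 (46.7% of 10794 genes) with a median log2 ratio of -0.48, and 2, Nr1d1 and Fkbp5, were at least 2-fold lower (12.0% of genes differed by 2-fold in either direction). Of 5 members that passed for anti-PD-1 against control, 1 was above 0 (42.9% of genes), the median was -0.52 and 0 reached 2-fold (2.37%). Of 7 for combination against anti-PD-1, 3 were above 0 (48.6%), the median was -0.31 and 0 reached 2-fold (6.89%). All 10 passed for combination against BTYNB, with 1 above 0 (50.8%) and a median of -0.21. That 1 was Nr1d1, which was 2.40-fold higher in combination (1.75 to 3.32) and the only member past 2-fold, beside 3.74% of genes. With BTYNB, 6 of 7 members had the same sign in both contrasts (65.6% of genes), and 4 of 5 were below 0 in both contrasts with anti-PD-1 (31.7% of genes).

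Within myeloid cells, macrophages with at least 3 UMIs of C1qa, C1qb and C1qc (245, 1612, 353 and 892 cells) gave the same pattern. Here the Per1 level was 52.5, 100.4, 28.7 and 48.6 CPM, the Fkbp5 level 78.8, 34.9, 56.7 and 28.8 CPM and the Nr1d1 level 13.1, 6.03, 18.5 and 12.7 CPM. Dendritic cells could be compared between BTYNB (266 cells) and combination (202 cells), where Per1 measured 96.6 and 70.4 CPM. Neutrophils reached 50 cells in BTYNB alone, with 76 cells and 41.5 CPM of Per1.

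Members had the same sign in tumour and myeloid cells in most cases. For BTYNB against control all 9 members with enough UMIs in both classes agreed in sign, 3 higher (Per1, Per2 and Ciart) and 6 lower, and 64.6% of 10328 genes agreed. After subtraction of the expected tumour RNA, Dbp in myeloid cells was higher in BTYNB (log2 ratio 0.51 in place of -0.48). Tsc22d3 in tumour cells turned from -0.12 to 0.031 as a mean over cells and to 0.014 with cells of several gates kept. Under each of these settings, and in cells with at least 5115 UMIs, 8 members agreed in place of 9. Among the 9 members, intervals without 1 in both classes were found for Per1, Nr1d1, Nr1d2 and Fkbp5, with no share over all genes computed. The size was not shared: Nr1d1 had a ratio of 0.913 in tumour and 0.314 in myeloid cells. For anti-PD-1 against control 4 of 5 members agreed (62.6% of genes), all lower. Nr1d1 did not, with a log2 ratio in myeloid cells of 0.37 that became -0.66 in cells with at least 5115 UMIs. For combination against anti-PD-1 5 of 7 agreed (59.2% of genes), with Nr1d1 and Tef in opposite directions in the 2 classes. The Tef values lay close to 0 in tumour cells (0.08, and -0.014 with median-of-ratios scaling) and turned in myeloid cells after subtraction of tumour RNA (-0.31, then 0.027). Over all 4 classes, combination against BTYNB had 4 of 8 members with 1 sign (31.7% of genes), namely Per1, Ciart, Nr1d2 and Tsc22d3, each lower in combination. In cells with at least 5115 UMIs 1 member was left with a shared sign, since Ciart, Nr1d2 and Tsc22d3 turned in T cells, and Ciart and Tsc22d3 in B cells. For BTYNB against control, and likewise when combination was set against anti-PD-1, each class thus had some members that were higher and others that were lower.

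**Figure D2:**
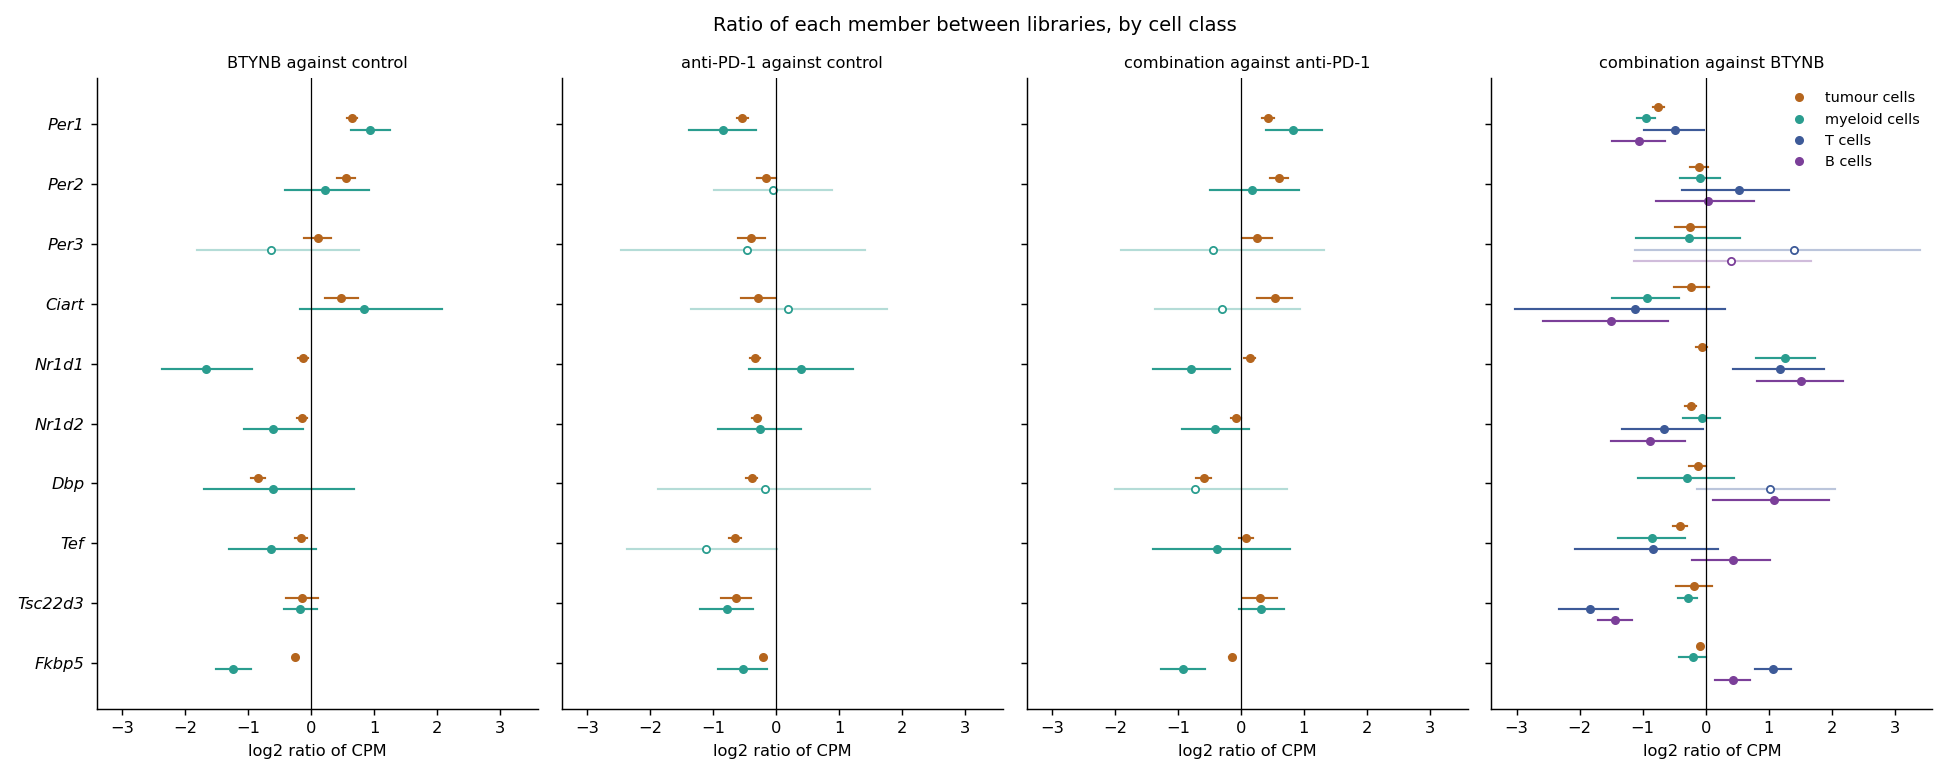
Log2 ratio of CPM (horizontal axis) of each member in the 4 contrasts, coloured by cell class, with exact 95% intervals as lines and open, pale symbols for members with fewer than 50 UMIs over both libraries. For BTYNB against control, Per1 lies right of 0 and Fkbp5 left of 0 in both classes, and for combination against BTYNB Nr1d1 lies right of 0 in myeloid, T and B cells but not in tumour cells.

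Lymphocytes of the BTYNB library had high levels of Tsc22d3. In T cells it measured 178 CPM in BTYNB (168 to 189) and 49.8 in combination (35.6 to 67.8), a ratio of 0.280 (0.199 to 0.383). B cells had 294 CPM (282 to 306) and 109 CPM (89.9 to 131), a ratio of 0.370 (0.305 to 0.446). Tumour RNA would add at most 1.93 CPM to these levels, but it also lowers the CPM of every lymphocyte gene. Its share was 22.3% in BTYNB and 52.6% in combination in T cells, and 29.7% and 48.6% in B cells. The summed T markers measured 3592 and 1696 CPM in T cells, and the B markers 4948 and 2381 CPM in B cells. In cells with at most 2 keratin UMIs, where the shares were 10.7% and 10.4% in T cells and 12.0% and 12.9% in B cells, Tsc22d3 measured 206 and 69.8 CPM in T cells (2221 and 52 cells) and 366 and 211 CPM in B cells (3030 and 64 cells). Among cells with at least 5115 UMIs, the smallest total in combination, the order was not kept. The log2 ratio of Tsc22d3, combination against BTYNB, was then 0.06 in T cells instead of -1.82, and 0.83 in B cells instead of -1.43. Only 160 T and 158 B cells of BTYNB were that deep, and their tumour RNA shares were 49.0% and 74.5%. What part depth and tumour RNA have in the Tsc22d3 difference was not tested.

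Per1 was also higher in BTYNB than in combination, at 73.4 and 52.3 CPM in T cells and 99.3 and 47.8 CPM in B cells, with ratios of 0.712 (0.507 to 0.978) and 0.482 (0.356 to 0.640). Ciart measured 26.5 CPM in B cells of BTYNB (218 UMIs) and 9.38 in combination (10 UMIs), a ratio of 0.354 (0.167 to 0.663). Nr1d2 was lower in combination in both lymphocyte classes, with 45.1 and 28.6 CPM in T cells and 46.8 and 25.3 CPM in B cells. With at most 2 keratin UMIs the direction stayed for Per1 (76.0 and 55.8 CPM in T cells, 111 and 46.6 CPM in B cells), Ciart (32.4 and 7.37 CPM in B cells, although its log2 ratio was 0.16 at 5115 UMIs and above, against -1.41) and Nr1d2 (47.7 and 19.5 CPM in T cells, 47.0 and 29.5 CPM in B cells). In T cells with at least 5115 UMIs the log2 ratio of Nr1d2 was 0.58 in place of -0.64, and that of Ciart 0.44 in place of -0.98.

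Nr1d1 and Fkbp5 showed the opposite order, and the expected tumour RNA differed in the same direction. Fkbp5 measured 77.2 and 162 CPM in T cells (ratio 2.10, 1.72 to 2.55), of which tumour RNA would supply 49.1 and 109 CPM. With at most 2 keratin UMIs it measured 51.2 and 58.6 CPM. In B cells it measured 86.7 and 117 CPM, of which tumour RNA would supply 65.5 and 101 CPM, and 58.7 and 56.5 CPM with few keratin UMIs. Its log2 ratio in B cells was 0.43, and -0.37 at 5115 UMIs and above. Nr1d1 measured 12.1 and 27.4 CPM in T cells and 8.51 and 24.4 CPM in B cells, with 7.08 and 5.58 CPM and 3.41 and 9.82 CPM when keratin UMIs were limited. In T cells 3 of 8 members with enough UMIs were at least 2-fold apart (Nr1d1, Fkbp5 and Tsc22d3), beside 19.8% of 9815 genes, and 3 of 8 were above 0 (51.8%). In B cells 4 of 9 were 2-fold apart (Per1, Ciart, Nr1d1 and Tsc22d3), beside 18.7% of 10438 genes, and 5 of 9 were above 0 (48.0%). T and B cells of combination were few and deep, with medians of 7407 and 6471 UMIs against 2055.5 and 1867 in BTYNB.

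**Figure D3:**
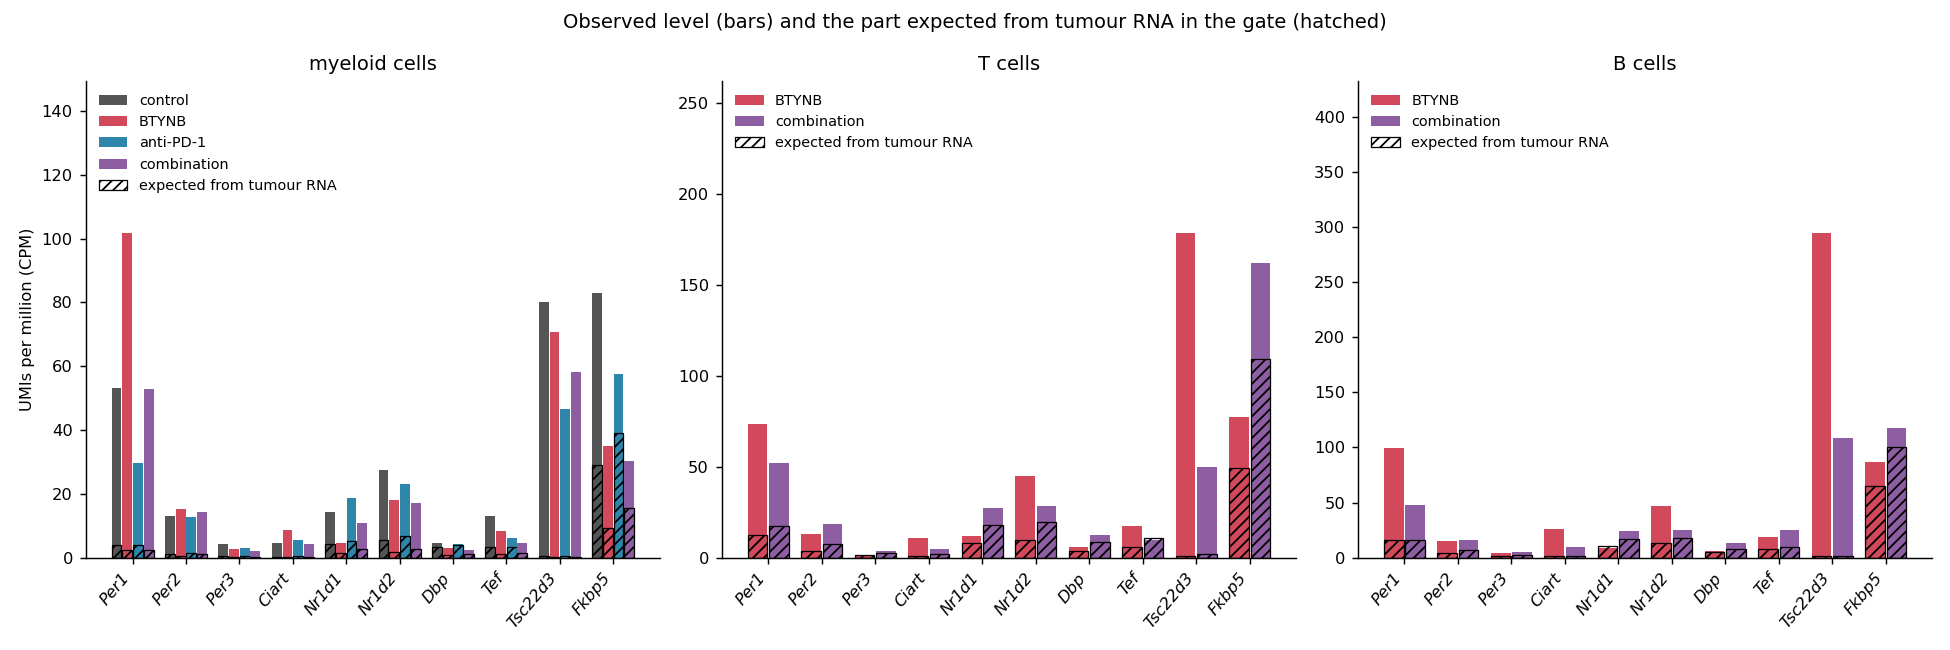
Level of each member in CPM (vertical axis) in myeloid, T and B cells, with bars coloured by library and hatched parts showing the level expected from tumour RNA, which is the level in tumour cells times the tumour RNA share of the gate. Hatching covers most of the Fkbp5 bars in T and B cells and little of the Tsc22d3 and Per1 bars of the BTYNB library.

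Tumour and myeloid cells of the same library differed in the members they used. Tsc22d3 measured 2.97 to 4.61 CPM in tumour cells and 46.7 to 80.1 CPM in myeloid cells. Dbp ran the other way in all 4 libraries, with tumour cells 6.62-fold (3.35 to 15.3), 5.61-fold (4.20 to 7.67), 5.72-fold (2.77 to 14.2) and 6.30-fold (4.17 to 9.99) above myeloid cells. Tef and Fkbp5 were also at least 2-fold higher in tumour cells of each library, so that 4 of 10 members were 2-fold apart in 1 direction in every library, beside 26.5% of 13701 genes. Tumour RNA in the myeloid gate, at shares of 11.0%, 4.27%, 17.0% and 7.54%, would supply most of the myeloid Dbp in control and anti-PD-1. Its part in the folds of Dbp, Tef and Fkbp5 was not tested. Per2 was at a like level in both classes, with ratios of 0.746 to 1.02 whose intervals all included 1.

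Cycling tumour cells had less of nearly all members than the remaining tumour cells of their own library. Per3, a period gene less central to the loop, stood at 3.79, 3.62, 2.84 and 3.20 CPM in cycling cells and at 7.36, 7.45, 6.07 and 6.65 CPM in cells that were neither cycling nor high in Cd24a. The ratios of 0.515, 0.486, 0.468 and 0.482 were close in all 4 libraries. Dbp measured 26.4, 11.0, 16.6 and 8.94 CPM in cycling cells against 37.8, 22.6, 30.4 and 22.9 CPM, with ratios from 0.391 in combination to 0.698 in control. In all, 9 of 10 members were lower in cycling cells in every library, beside 47.4% of 13142 genes, and Ciart was the exception with ratios of 0.904 to 1.32. The median cycling cell was deeper (8352 to 19823 UMIs) than the remaining one (6100 to 12841.5 UMIs). A cell could be both Cd24a-high and cycling, and the part of such shared cells in the values of either subset was not tested. In Cd24a-high cells 8 of 10 members were lower in every library (37.4% of 12184 genes) than in cells that were neither. Per3 had ratios of 0.254, 0.385, 0.336 and 0.382 there, and Tef of 0.709, 0.654, 0.360 and 0.350.

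**Figure D4:**
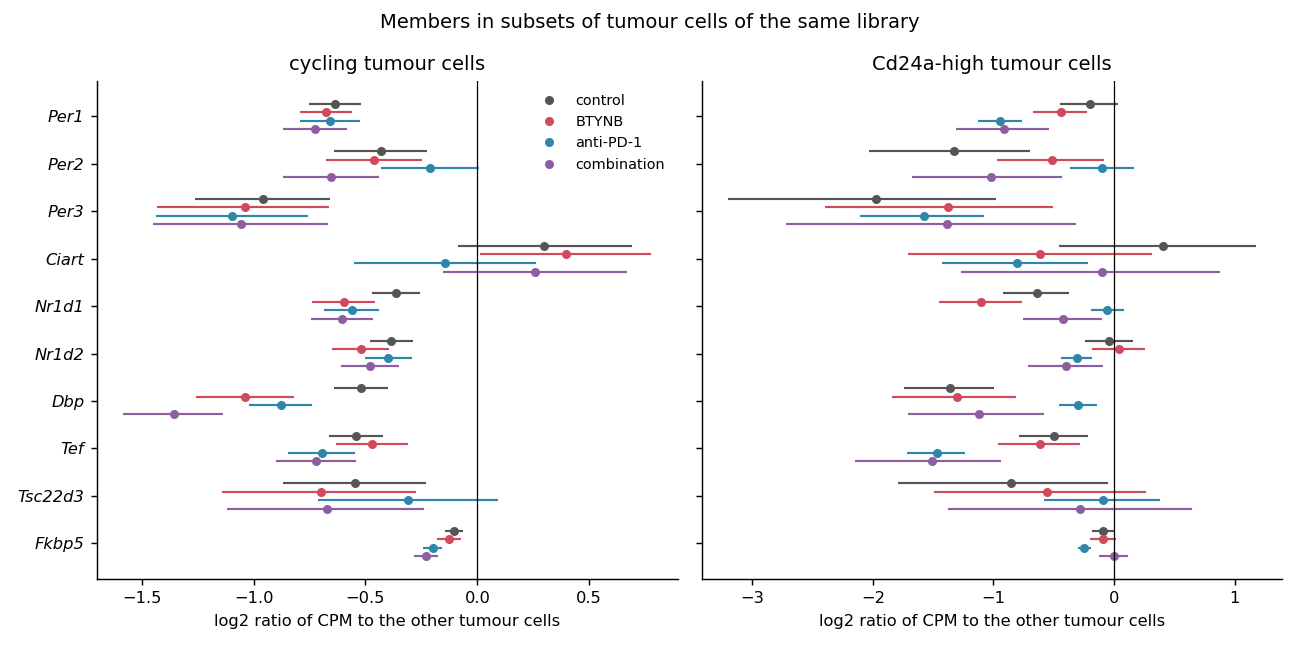
Log2 ratio of CPM (horizontal axis) of each member in cycling and in Cd24a-high tumour cells to the other tumour cells of the same library, 1 point per library with its exact 95% interval. Per1, Per3, Dbp and Tef lie left of 0 in cycling cells of all 4 libraries, and Ciart lies near or right of 0.

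Detection per cell was compared after each cell had been thinned to 1000 UMIs, which left out 19 tumour, 15 myeloid, 30 T and 32 B cells of BTYNB and 0 cells of these classes elsewhere. A UMI of Tsc22d3 was then found in 30.3% of BTYNB B cells (exact binomial 95% interval 28.7 to 31.9) and 13.0% of combination B cells (7.62 to 20.3), and in 20.5% and 7.37% of T cells. In tumour cells, which had little of it, the share was 0.354% to 0.480%. Without thinning the B cell shares were 48.5% and 46.3%, at median depths of 1867 and 6471 UMIs. Per1 was found in 3.86%, 5.81%, 2.61% and 3.59% of tumour cells and in 7.02%, 11.3%, 2.70% and 5.44% of myeloid cells. Dbp was found in 3.43%, 2.05%, 2.68% and 1.86% of tumour cells.

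Other clock genes were followed to set the members beside their partners. Cry1, Nfil3, Arntl and Npas2 run opposite to Dbp in a cycling tissue, and the first pair were higher with BTYNB in tumour cells. Cry1, a repressor of the loop that peaks late, measured 5.63, 10.4, 5.38 and 10.2 CPM, so both libraries with BTYNB stood above their partners, by 1.85-fold (1.62 to 2.10) and 1.89-fold (1.66 to 2.15). Nfil3, which represses D-box genes that Dbp activates, measured 58.6, 89.7, 50.4 and 80.7 CPM in tumour cells and 140, 229, 130 and 156 CPM in myeloid cells. Arntl differed little with BTYNB in tumour cells, at 11.0, 11.9, 14.4 and 12.4 CPM, and stood 1.31-fold above control with anti-PD-1 (1.19 to 1.43). In myeloid cells Arntl measured 4.18, 7.50, 15.2 and 10.5 CPM, from 7, 115, 25 and 94 UMIs, which put anti-PD-1 against control under the minimum for a comparison. Npas2, which can replace Clock, stayed under 1 CPM in tumour cells of each library (0.938, 0.542, 0.451 and 0.686).

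Of 18 clock partners tested in tumour cells, 13 were above 0 for BTYNB against control (72.2%, beside 52.2% of all genes) with a median log2 ratio of 0.14, and 10 for combination against anti-PD-1 (55.6%, beside 58.9%). Cry2, the paralogue of Cry1, measured 32.4, 48.0, 23.7 and 43.6 CPM there. With anti-PD-1, 6 of 18 were above 0 against control (42.1% of all genes) and 4 of 18 for combination against BTYNB (47.8%). Of 12 partners tested in myeloid cells, 5 were above 0 for BTYNB against control (46.7% of all genes), and Bhlhe41, an E-box repressor, measured 15.5, 2.54, 15.2 and 7.47 CPM. Of the 6 clock-controlled outputs, 3 were above 0 in tumour cells for BTYNB against control (median -0.03) and 3 for combination against anti-PD-1 (median -0.15). Usp2, a deubiquitinase, was among the higher ones in both (5.67 and 10.1 CPM in control and BTYNB, 4.97 and 8.36 CPM in anti-PD-1 and combination).

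Most glucocorticoid-induced genes outside the set stood on the other side of 0 from Fkbp5 in tumour cells with BTYNB. In tumour cells 18 of 22 were above 0 for BTYNB against control (median log2 ratio 0.31), beside 52.2% of all genes, and 17 of 22 for combination against anti-PD-1 (0.39), beside 58.9%, where Fkbp5 was lower in both. Pdk4, a kinase that shuts pyruvate oxidation, measured 11.6, 23.7, 12.6 and 23.3 CPM and Klf9, a transcription factor, 129, 199, 98 and 149 CPM. Sgk1, a kinase that regulates ion transport, was lower in both contrasts, like Fkbp5, at 244, 176, 159 and 144 CPM. In myeloid cells 7 of 19 were above 0 for BTYNB against control (46.7% of all genes). Il1r2, a decoy receptor for interleukin 1, measured 34.7, 222, 10.3 and 59.5 CPM there, while neutrophil markers, which Il1r2 often accompanies, summed to 419, 1975, 52.8 and 37.6 CPM. Their part in the Il1r2 difference was not tested. The glucocorticoid receptor gene Nr3c1 measured 28.9, 33.4, 28.1 and 30.6 CPM in tumour cells. In combination it was lower than in BTYNB in T cells (165 and 64.7 CPM in BTYNB and combination) and in B cells (146 and 66.6 CPM). Summed T markers in T cells were likewise lower (3592 and 1696 CPM), as were B markers in B cells (4948 and 2381 CPM). The part of tumour RNA and depth in the Nr3c1 difference was not tested.

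Immediate early genes, which respond to stimulation and to handling of cells, were higher in the same 2 contrasts as Per1 in tumour cells. For BTYNB against control 17 of 18 were above 0 with a median log2 ratio of 0.58 (52.2% of all genes above 0), and for combination against anti-PD-1 16 of 18 with 0.44 (58.9%). Jun measured 491, 941, 528 and 912 CPM and Atf3 172, 327, 137 and 311 CPM. For combination against BTYNB 16 of 18 were below 0, as Per1 was, with a median log2 ratio of -0.11 and a lowest value of -0.41 (47.8% of all genes above 0). The size differed there, since Per1 had a ratio of 0.595 and Jun of 0.970 (0.958 to 0.982). In myeloid cells 10 of 18 immediate early genes were above 0 for BTYNB against control (46.7% of all genes) and 16 of 18 for combination against anti-PD-1 (48.6%), while Per1 was higher in both. What part stimulation or handling has in the Per1 difference was not tested. Of 8 heat shock genes, 5 were above 0 in tumour cells for BTYNB against control (52.2% of all genes), and Hspa1b measured 8.11, 22.4, 29.2 and 10.7 CPM.

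Similarity of pattern was described over the 12 library and class units with at least 50 cells, each centred on its class mean. The units share libraries, so the correlations are descriptions. The mean of the members was most like Fgfr2 (Pearson r 0.977), Marchf5 (0.953), Maip1 (0.946), Zfp955a (0.943) and Slc35e2 (0.936), among 9343 genes. These genes were picked for the highest r, so the members cannot be ranked against them. For the members, each a part of the mean, r with it ran from 0.0860 for Nr1d1 to 0.792 for Tef. Among pairs, Per1 and Ciart had r 0.748, and Per1 and Nr1d1 had r -0.787. Per3 and Fkbp5 had r 0.866. Per3, Fkbp5 and Nr1d1 were read partly from tumour RNA in the lymphocyte gates, and its part in these correlations was not tested.

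Several members overlap other genes in the GENCODE annotation of GRCm38. Nr1d1 and Thra, and Dbp and Sphk2, lie on opposite strands, Ciart and Tef overlap antisense transcripts, Fkbp5 overlaps noncoding transcripts, and Per3 overlaps Camta1 on its own strand. Whether counting used strand is not given in the sources used here, so the reads of such partners cannot be told apart.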

How the data were processed

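Single-cell RNA-seq was made from ascites with the BD Rhapsody whole transcriptome assay, 1 pooled library per group. The deposited values are raw counts of UMIs per gene and cell that the authors produced with the BD Rhapsody Sequence Analysis Pipeline on GRCm39, per the submitters' processing notes. Per the study's methods, multiplets were identified with scDblFinder. Matrices held 7858, 19247, 12163 and 7074 cells (the libraries in the order used above). Cells with at least 200 genes and at most 33% mitochondrial UMIs were kept (7834, 18283, 12019 and 7042). Cells that met more than 1 gate (39, 439, 54 and 219) were left out, and 414, 6030, 697 and 1192 cells met none. No doublet caller decided the main result. Leaving out the top 5% of scrublet scores was an alternative.

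Within each class of a library, gene UMIs were added up and divided by the class total (python 3.11.15, numpy 2.4.6, scipy 1.17.1, pandas 2.3.3, scanpy 1.11.5, matplotlib 3.10.9). With 1 library per group no test between treatments was possible and no p-value is given. Ratio intervals are exact conditional binomial intervals, checked on simulated counts. Signs and medians use log2(CPM + 1) for genes with at least 50 UMIs over both libraries, and 2-fold means a log2 ratio of at least 1 in size. The counts in Cd24a-high cells between libraries had no such minimum. The expected tumour RNA is the tumour level times the tumour marker share.

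All 10 members are named. Of each other list, at most 4 genes per contrast and class were eligible, those with the highest log2 ratio in size, at least 50 UMIs and an interval without 1, besides Arntl, Cry1, Npas2 and Nfil3. The members and lists were chosen with earlier results of these data known. Alternatives covered scaling, depth, cell and gene filters, pseudocount, multiplets, tumour RNA and cell subsets.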

Additional observations from a re-analysis of the deposited data

Results flagged for a closer look

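Nr1d1 went in opposite directions in 2 classes for combination against anti-PD-1, with a log2 ratio in tumour cells 0.88 above that in myeloid cells. Fkbp5, for combination against BTYNB, had a log2 ratio in T cells 1.15 above that in tumour cells, where tumour RNA would supply 109 of 162 CPM of the combination T cells. Nr1d1 in tumour cells was lower with BTYNB against control and higher in combination against anti-PD-1, and the first log2 ratio minus the second was -0.27. None of these differences was tested, since each group is 1 library.

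Cells that met no gate were used in no comparison, and they numbered 414 in control and 6030 in BTYNB. There Per1 measured 82.1 CPM in BTYNB and 44.4 in control, Per2 17.5 and 11.0 CPM, and Tsc22d3 80.3 and 18.8 CPM.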

How the results depend on the processing

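Of 147 alternative values of the medians and shared-sign counts, 128 stayed within the range set for a like value, and 26 of 680 alternative values of single members changed sign. No paired analysis was possible because each group is 1 library. With a pseudocount of 10 CPM, the tumour median for combination against BTYNB was -0.080 (-0.16 as reported). With cells of at least 5115 UMIs, the myeloid median was -1.23 for anti-PD-1 against control (-0.52), and combination against anti-PD-1 gave 0.0080 (-0.31), the T cell median 0.22 (-0.56) and the B cell median -0.033 (0.03). For combination against anti-PD-1 in myeloid cells, subtraction of tumour RNA gave 0.027 and a minimum of 200 UMIs 0.31. The T cell median was 0.0053 with no minimum of UMIs and -0.99 in cells with at most 2 keratin UMIs, an alternative chosen after seeing the data. The B cell median was -0.10 with median-of-ratios scaling, -0.29 as a mean over cells, -0.019 with cells of several gates kept, -1.04 with a minimum of 200 UMIs and -0.66 with at most 2 keratin UMIs. In the 3 contrasts of tumour and myeloid cells alone, a minimum of 200 UMIs left fewer members to compare, all with a shared sign. For BTYNB against control they were 5, namely Per1, Per2, Nr1d2, Tsc22d3 and Fkbp5 (9 as reported). For anti-PD-1 against control they were 2, namely Tsc22d3 and Fkbp5 (4 as reported, and 8 with no minimum, when all members were compared). For combination against anti-PD-1 they were 3, namely Per1, Tsc22d3 and Fkbp5 (5 as reported). At 5115 UMIs, 1 member had a shared sign for combination against BTYNB (4). Among log2 ratios of at least 1 in size, those that turned were all of combination against BTYNB, namely Nr1d1 in T cells with at most 2 keratin UMIs (-0.29, reported 1.12) and, at 5115 UMIs, Tsc22d3 in T cells (0.057, reported -1.82), Ciart in B cells (0.16, reported -1.41) and Tsc22d3 in B cells (0.83, reported -1.43). Smaller ratios of this contrast turned for Ciart (0.44) and Nr1d2 (0.58) in T cells and Fkbp5 in B cells (-0.37) at 5115 UMIs, for Per2 and Per3 in T cells and Fkbp5 in B cells with at most 2 keratin UMIs, for Per2 in B cells under 4 settings and for Nr1d2 in myeloid cells with cells of several gates kept. The cause was not tested. T and B cells of combination, 95 and 123 in number, and myeloid cells of control and anti-PD-1 limit the precision.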
